A study of Mus musculus with 24 samples.

Results

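Cxcl1, Cxcl2, Cxcl3 and Cxcl5, which encode CXC chemokines that attract neutrophils, and their receptor gene Cxcr2 were followed through LPS stimulation and restimulation of mouse bone marrow-derived macrophages (BMDMs). These 5 genes were found in the table of 22165 genes by their Ensembl identifiers (GENCODE M21), and all 5 were among the 11878 genes with enough counts to be tested.

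CXCR2 is a G protein-coupled receptor, carried above all by neutrophils, that guides them along gradients of these chemokines. In the mouse, CXCL1, CXCL2, CXCL3 and CXCL5 are among its ligands, and they carry a short glutamate-leucine-arginine motif that the interferon-induced CXC chemokines lack. LPS acts through TLR4 and NF-kappaB, and a macrophage exposed to LPS for a day becomes tolerant: many inflammatory genes then respond less to the next dose. Irg1 (gene symbol Acod1) encodes the enzyme that makes itaconate in such macrophages.

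The 24 libraries were 3′-end RNA-seq of BMDMs from WT and Irg1 KO C57BL/6N mice, aged 8 to 20 weeks, whose bone marrow was cultured with 20 ng/ml M-CSF for 7 days. In each genotype 3 cultures were left unstimulated (Unstim.), 3 were harvested directly after 24 h with 100 ng/ml LPS (LPS 24h), 3 received a further 3 h of LPS after the 24 h, a change of medium and 1 h of rest (LPS 24h->LPS 3h, called restimulated here), and 3 went through that procedure with the second dose alone (LPS 3h). No group went through the medium change and rest without a second dose. Changes of LPS 3h cells from Unstim., or of restimulated cells from LPS 24h, cannot be told apart from those steps. The labels do not tie cultures to animals, so p-values measure the spread between these cultures, which may share an animal. The WT mice were bought in and the Irg1 KO mice lack the gene in every cell, so a difference between genotypes cannot be told apart from a difference between colonies.

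The 4 chemokine genes lie in 1 cluster on chromosome 5 (GRCm38, GENCODE M21), all on the + strand. Cxcl5 (ENSMUSG00000029371.7) spans chr5:90759360-90761624, Cxcl3 (ENSMUSG00000029379.10) spans chr5:90786103-90789600, Cxcl1 (ENSMUSG00000029380.11) spans chr5:90891241-90893115 and Cxcl2 (ENSMUSG00000058427.10) spans chr5:90903871-90905938. From the start of Cxcl5 to the end of Cxcl2 the cluster covers 146.6 kb, and Cxcl1 ends 10755 bases before Cxcl2 starts. The CXC chemokine genes Ppbp, Pf4 and Cxcl15 lie in it too, between Cxcl5 and Cxcl1. Cxcr2 (ENSMUSG00000026180.8) lies apart, at chr1:74153989-74161246 on the + strand.

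Promoters are shown for Cxcl1, Cxcl2 and Cxcl3, whose levels followed each other most closely over the libraries. Of the 5 genes, 4 (Cxcl1, Cxcl2, Cxcl3 and Cxcr2) had a promoter in the RefSeq table of build GRCm38.p6. The 250 bases before each RefSeq start were searched on both strands for GGG and TTCC with any 3 bases between them, a common form of the NF-kappaB site, for the TATA box TATAAA and for the AP-1 site TGANTCA, and overlapping matches of a motif were counted once. The sequences shown start 150 bases before the RefSeq start and end before the first transcribed base, with matches in capitals.
Cxcl1, chr5:90891095-90891240, + strand: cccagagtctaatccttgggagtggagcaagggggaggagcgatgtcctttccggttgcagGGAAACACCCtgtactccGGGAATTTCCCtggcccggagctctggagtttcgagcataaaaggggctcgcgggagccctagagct
Cxcl2, chr5:90903749-90903870, + strand: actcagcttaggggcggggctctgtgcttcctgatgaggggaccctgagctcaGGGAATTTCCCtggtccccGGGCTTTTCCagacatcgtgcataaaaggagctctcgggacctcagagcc
Cxcl3, chr5:90785951-90786100, + strand: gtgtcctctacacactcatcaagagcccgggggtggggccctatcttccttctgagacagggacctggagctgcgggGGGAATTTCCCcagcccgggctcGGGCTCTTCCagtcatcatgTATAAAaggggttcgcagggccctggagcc

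Each of the 3 promoters held 2 matches to this NF-kappaB form. One of them was the same stretch in all 3, GGGAATTTCCC, which matches on both strands. Of 32841 promoter windows of the same length, 4.65% held at least 1 match and 0.104% (34 windows) held 2 or more. Of the 3, only Cxcl3 held exactly TATAAA, found in 12.4% of all windows, and none held TGANTCA, found in 6.75%. In the sequences shown, Cxcl3 held TATAAAagg, and Cxcl1 and Cxcl2 held cataaaagg, which differs in 1 base and was not searched for. The Cxcr2 window held none of the 3 motifs searched for. A match describes the sequence and is not a measured binding site.

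Libraries held from 3927378 to 20430359 counts in gene rows (median 11539055.5), and levels are given as normalized CPM, read counts scaled to the library total with TMM factors. Acod1 held 9 to 256 counts in the 9 LPS-treated Irg1 KO libraries and 31169 or more in the 9 LPS-treated WT libraries. The 8 macrophage markers summed to between 3320 and 9830 normalized CPM, and T, NK, B and erythroid cell markers to at most 1.51. Mast cell and basophil markers reached 3.58, dendritic cell markers 11.1, and the 5 stromal and endothelial markers 67.2 to 147 normalized CPM, most of it from Col1a1, Dcn and Col3a1. The prefix of the library labels, taken here as the pool in which a library was made, was pool 4 for all 6 unstimulated libraries. WT cultures 1, 2 and 3 were in pools 1, 2 and 4 at each LPS treatment. No LPS-treated Irg1 KO library was in pool 4, so for Irg1 KO the change from Unstim. cannot be told apart from the change of pool, except through a model with pool as a term.

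**Figure D1:**
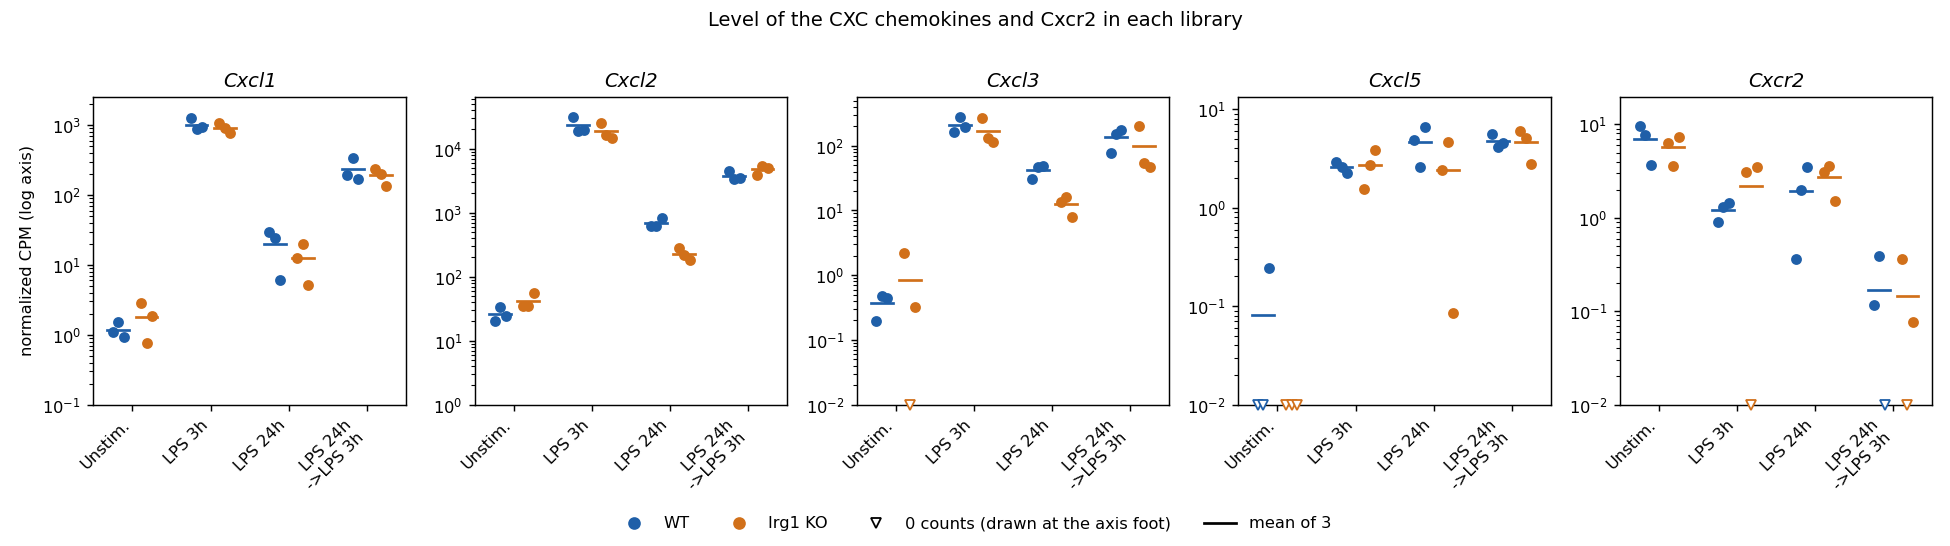
Normalized CPM (log axis) of Cxcl1, Cxcl2, Cxcl3, Cxcl5 and Cxcr2 in each of the 24 libraries, by treatment, for WT (blue) and Irg1 KO (orange). Horizontal lines are means of 3 and open triangles mark libraries with 0 counts. Cxcl1 and Cxcl2 peak at LPS 3h, Cxcl5 is at similar levels after each LPS treatment, and Cxcr2 is highest in unstimulated cells.

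Cxcl2 was induced by the first 3 h of LPS from 25.8 ± 6.97 to 23550 ± 6982 normalized CPM in WT (mean ± SD, n = 3) and from 41.7 ± 11.5 to 18560 ± 5703 in Irg1 KO. It then made up 0.966% to 2.22% of all reads on genes. In the WT libraries the values at LPS 3h were 31600, 19160 and 19890 normalized CPM, and in the Irg1 KO libraries they were 25080, 16100 and 14500. Both ranges lay far above the unstimulated values, of which the highest was 54.9. The log2 fold change of LPS 3h against Unstim. was 9.83 (SE 0.435, adjusted p = 3.71e-17) in WT and 8.79 (SE 0.417, adjusted p = 2.23e-16) in Irg1 KO.

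Cxcl1 rose almost as steeply. In WT the unstimulated libraries held 1.09, 1.53 and 0.927 normalized CPM, and the LPS 3h libraries held 1251, 881 and 937. In Irg1 KO the values were 2.81, 0.754 and 1.87 before and 1077, 899.9 and 783 after 3 h of LPS. The groups did not overlap in either genotype, where 21% of all tested genes lay higher without overlap in WT and 20% in Irg1 KO. The log2 fold change was 9.78 (SE 0.634, adjusted p = 1.04e-13) in WT and 8.95 (SE 0.617, adjusted p = 4.93e-13) in Irg1 KO. With pool as a term the Irg1 KO value was 8.22 for Cxcl1 and 9.41 for Cxcl2 (adjusted p = 1.24e-09 and 7.35e-14).

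Cxcl3 started from 0 to 14 counts per library. It reached 164, 280 and 195 normalized CPM in the WT libraries after LPS 3h and 265, 132 and 115 in the Irg1 KO libraries. All 6 libraries lay above every unstimulated library, whose values ran from 0 to 2.18. The log2 fold change was 9.14 (SE 0.751, adjusted p = 2.17e-11) in WT and 7.82 (SE 0.722, adjusted p = 2.9e-10) in Irg1 KO. Without Irg1 KO Unstim. replicate 1, which held 14 of the 20 unstimulated Irg1 KO counts, the latter was 9.48.

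Cxcl5, whose product is best known from epithelial and stromal cells, stayed at a few CPM. The stromal and endothelial marker sums overlapped between unstimulated and LPS 3h cells in both genotypes (76.3 to 145 and 79.3 to 137 in WT, 75.6 to 96.2 and 85.8 to 147 in Irg1 KO), and the part of such cells in the level of Cxcl5 was not tested. It had 0 counts in 5 of the 6 unstimulated libraries and 5 counts in the other (WT replicate 3). After LPS 3h it held 15 to 22 counts in every library, at 2.59 ± 0.332 normalized CPM in WT and 2.71 ± 1.16 in Irg1 KO. In WT the log2 fold change was 4.57 (SE 1.05, adjusted p = 0.00105), and 7.86 without the 1 unstimulated library that held counts. In Irg1 KO the mean of Cxcl5 was 6.8-fold the floor of 3 counts per library, averaged over the 3 unstimulated libraries. The edgeR test of LPS 3h against Unstim. gave an adjusted p of 0.000234.

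Cxcr2 went the other way. The unstimulated WT libraries held 9.73, 7.64 and 3.66 normalized CPM and the unstimulated Irg1 KO libraries 6.39, 3.58 and 7.33. After LPS 3h the WT libraries held 0.911, 1.3 and 1.46, below every unstimulated library, as was so for 26.7% of all genes. The log2 fold change in WT was -2.49 (SE 0.917, adjusted p = 0.0362). That call rests on small numbers (5 to 11 counts per library after LPS) and was lost in 5 of 6 fits that left out 1 library: leaving out replicate 1, 2 or 3 of WT LPS 3h gave adjusted p of 0.111, 0.0929 and 0.0805, and leaving out replicate 1 or 2 of WT Unstim. gave 0.122 and 0.0806. With pool as a term it was 0.147. In Irg1 KO the values after LPS 3h were 3.09, 0 and 3.52 normalized CPM, and the log2 fold change of -1.39 (SE 0.877) did not pass the test (adjusted p = 0.228).

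In WT all 4 chemokines rose and Cxcr2 fell at LPS 3h, where 15.8% of all tested genes passed as higher and 16.3% as lower. In Irg1 KO the 4 chemokines rose, where 17% of all genes passed as higher and 18.9% as lower. No difference between genotypes in the response to LPS 3h passed the test. The log2 differences, Irg1 KO minus WT, were -0.83 for Cxcl1, -1.04 for Cxcl2, -1.33 for Cxcl3 and 1.11 for Cxcr2, with adjusted p from 0.793 to 0.989, and for Cxcl5 the adjusted p was 0.934. The interval for Cxcl2 ran from -1.91 to -0.17 on the log2 scale.

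**Figure D2:**
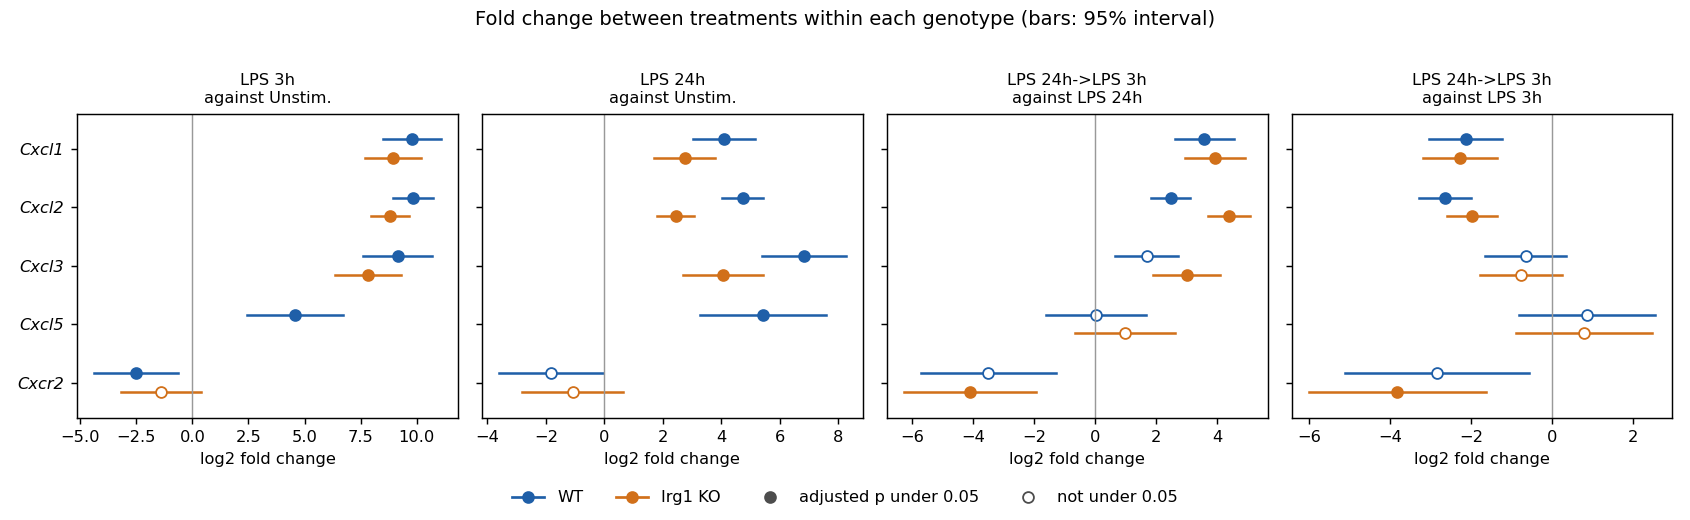
Log2 fold change (horizontal axis) of each gene between treatments in WT (blue) and Irg1 KO (orange). Points are estimates of edgeR's model, bars are 95% intervals, and filled points have an adjusted p under 0.05. Irg1 KO Cxcl5 against Unstim. is left out because its unstimulated libraries held 0 counts. Cxcl1 and Cxcl2 lie right of 0 in the first 3 panels and left of 0 in the fourth, and Cxcr2 lies left of 0 in all 4.

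After 24 h of LPS every library held less Cxcl1, Cxcl2 and Cxcl3 than any LPS 3h library of its genotype, a step that was not tested, and all 4 chemokines were above the unstimulated level. Cxcl1 held 29.3, 23.9 and 6.02 normalized CPM in WT and 12.4, 20.1 and 5.18 in Irg1 KO. Its log2 fold change against Unstim. was 4.08 (SE 0.52, adjusted p = 4.3e-07) in WT and 2.75 (SE 0.508, adjusted p = 0.000177) in Irg1 KO, and with pool as a term these were 3.34 and 1.95. Cxcl2 was at 683 ± 121 normalized CPM in WT and 226 ± 47.1 in Irg1 KO, log2 fold changes of 4.73 (SE 0.348, adjusted p = 5.87e-12) and 2.43 (SE 0.315, adjusted p = 7.29e-07).

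Cxcl3 was at 31, 46.7 and 49.4 normalized CPM in WT and at 13.5, 16.4 and 7.86 in Irg1 KO. The log2 fold change against Unstim. was 6.82 (SE 0.703, adjusted p = 7.51e-09) in WT and 4.06 (SE 0.668, adjusted p = 3.63e-05) in Irg1 KO, where it was 5.63 without Irg1 KO Unstim. replicate 1, 3.45 without replicate 3 and 4.97 with pool as a term. The share of Cxcl3 in the summed reads of Cxcl1, Cxcl2 and Cxcl3 went from 0.934% ± 0.44 at LPS 3h to 5.69% ± 1.11 at LPS 24h in WT and from 0.839% ± 0.141 to 4.98% ± 1.33 in Irg1 KO. In both genotypes the ranges of these shares did not overlap.

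Cxcl5 at LPS 24h overlapped its LPS 3h level in both genotypes. It held 4.87, 2.59 and 6.59 normalized CPM in WT, a log2 fold change against Unstim. of 5.42 (SE 1.05, adjusted p = 0.000328) that was 8.67 without WT Unstim. replicate 3. In Irg1 KO it held 2.43, 4.7 and 0.085. Their mean was 6.05-fold the mean floor of the unstimulated libraries, which replicate 3 did not reach. The edgeR test of LPS 24h against Unstim. gave an adjusted p of 0.000707. Irg1 KO replicate 3, the deepest library of all, held 2 counts of Cxcl5.

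For Cxcr2 the WT libraries at LPS 24h held 0.365, 1.97 and 3.53 normalized CPM and the Irg1 KO libraries 3.11, 3.58 and 1.53. The log2 fold changes against Unstim. of -1.82 (SE 0.871, adjusted p = 0.171) and -1.09 (SE 0.85, adjusted p = 0.47) did not pass the test, and with pool as a term the latter turned to 0.58. At LPS 24h the 4 chemokines passed as higher in both genotypes, where 9.25% of all genes did so in WT and 7.31% in Irg1 KO.

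Restimulation raised Cxcl1 and Cxcl2 again in both genotypes. Cxcl1 went to 195, 342 and 169 normalized CPM in WT and to 237, 203 and 134 in Irg1 KO, log2 fold changes against LPS 24h of 3.57 (SE 0.472, adjusted p = 1.01e-05) and 3.93 (SE 0.479, adjusted p = 9.24e-07). Within pools 1, 2 and 4 the WT value was 2.72, 3.83 and 4.77, and within pool 1 the Irg1 KO value was 3.89.

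Cxcl2 went to 4549, 3412 and 3416 normalized CPM in WT and to 3841, 5446 and 4933 in Irg1 KO. Its log2 fold change against LPS 24h was 2.47 (SE 0.313, adjusted p = 5.88e-06), or 5.55-fold, in WT and 4.39 (SE 0.342, adjusted p = 2.53e-10), or 20.98-fold, in Irg1 KO. The Irg1 KO cells started lower and ended at a level that overlapped that of WT. The difference between the responses, 1.92 (SE 0.424, 95% interval 1.05 to 2.78), had an unadjusted p of 8.41e-05 and missed the threshold after adjustment over all genes (adjusted p = 0.0838). It passed with no filter on low counts (0.0178), with pool as a term (0.0429), with DESeq2's Wald test (0.00346) and without WT LPS 24h replicate 1 (0.0427). Over the alternatives and over the fits with 1 library left out, adjusted p ran from 0.00346 to 0.395. Only 1 gene of all tested passed this test as higher in edgeR's model over all groups (0.00842%).

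Cxcl3 reached 76.4, 154 and 178 normalized CPM in the restimulated WT libraries, above every WT LPS 24h library (7.87% of all genes lay so), and its log2 fold change of 1.68 (SE 0.509) lay just beyond the threshold (adjusted p = 0.0554). With replicate 1 of WT LPS 24h->LPS 3h left out, its lowest library, it passed (1.99, adjusted p = 0.0344), as it did with no filter on low counts (adjusted p = 8.15e-05) and with pool as a term (adjusted p = 0.0244). In Irg1 KO it reached 199.6, 54.9 and 46.7, and the log2 fold change of 3 (SE 0.536) passed (adjusted p = 0.000373). It was 2.07 without Irg1 KO LPS 24h->LPS 3h replicate 1, the highest library, and 2.06 within pool 1. Cxcl5 changed by 0.022 (SE 0.798, adjusted p = 1) in WT and by 0.97 (SE 0.804, adjusted p = 0.655) in Irg1 KO, with 95% intervals of -1.61 to 1.65 and -0.67 to 2.62.

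Cxcr2 reached its lowest levels in the restimulated cells, with 1, 4 and 0 counts in the WT libraries and 5, 0 and 1 in the Irg1 KO libraries. The log2 fold change against LPS 24h was -4.11 (SE 1.06, 95% interval -6.27 to -1.95) in Irg1 KO, where the groups did not overlap, as for 15.5% of all genes in this direction (adjusted p = 0.0155). It did not pass without Irg1 KO LPS 24h->LPS 3h replicate 2 (0.108) or 3 (0.0931) or without Irg1 KO LPS 24h replicate 2 (0.0597), and it was -5.78 without restimulated replicate 1 (adjusted p = 0.0178). In WT it was -3.51 (SE 1.09), with LPS 24h replicate 1 as low as the highest restimulated library (adjusted p = 0.0641), and it passed without that library (-4, adjusted p = 0.0308), with no filter (adjusted p = 0.00924) and with DESeq2's Wald test (adjusted p = 0.0152). Leaving out 1 library at a time gave -5.03 (restimulated replicate 2) to -2.75 (LPS 24h replicate 3), and -2.89 for restimulated replicate 3, with adjusted p of 0.0571, 0.268 and 0.227. The difference between genotypes in this response was not significant (adjusted p = 0.986).

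In this comparison 2 of the 5 genes passed as higher in WT (Cxcl1 and Cxcl2) and 3 in Irg1 KO, where 2.46% and 3.44% of all genes did so. Cxcr2 passed as lower in Irg1 KO, beside 1.7% of all genes.

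Compared with cells that met LPS for the first time, restimulated cells held less Cxcl1 and Cxcl2. Restimulated WT cells held 23% of the LPS 3h level of Cxcl1 (95% interval 12.3% to 42.9%, log2 fold change -2.12, adjusted p = 0.000549) and 16.1% of that of Cxcl2 (10.3% to 25.2%, -2.64, adjusted p = 2.29e-07). For Irg1 KO cells the level of Cxcl1 was 20.8% (11.1% to 38.8%, -2.27, adjusted p = 0.000244) and that of Cxcl2 25.5% (16.5% to 39.5%, -1.97, adjusted p = 1.24e-05). With pool as a term the Irg1 KO log2 fold change of Cxcl2 was -2.69 (adjusted p = 1.79e-05), and within pool 2 it was -2.71. Neither gene's restimulated libraries overlapped the LPS 3h libraries, and 18.5% of all genes in WT and 21.2% in Irg1 KO lay lower without overlap. Lower calls made up 13.1% of all genes in WT and 14.1% in Irg1 KO, and higher calls 12.4% and 13.1%.

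For Cxcl3 no such drop passed the test. It was at 63.9% of the LPS 3h level in WT (31.7% to 129%, adjusted p = 0.353) and at 58.9% in Irg1 KO (29.2% to 119%, adjusted p = 0.258), and the groups overlapped. Without Irg1 KO LPS 24h->LPS 3h replicate 1 the Irg1 KO log2 fold change was -1.78 (adjusted p = 0.0154). For Cxcl5 the restimulated level was 183% in WT (57.2% to 588%, adjusted p = 0.46) and 174% in Irg1 KO (54.6% to 557%, adjusted p = 0.495).

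The level of Cxcr2 in restimulated cells was 7.11% of that at LPS 3h in Irg1 KO (1.56% to 32.4%, adjusted p = 0.00804), although the groups overlapped because Irg1 KO LPS 3h replicate 2 also held 0 counts. This log2 fold change of -3.81 was -4.42 without that library, -5.57 without restimulated replicate 1, and did not pass with pool as a term (-3.46, adjusted p = 0.0943). In WT the level was 14% (2.88% to 68%, adjusted p = 0.0603), and it passed with replicate 2 of WT LPS 24h->LPS 3h left out (adjusted p = 0.039), with no filter (adjusted p = 0.0243) and with DESeq2's Wald test (adjusted p = 0.022). The WT log2 fold change of -2.84 was -4.41 without that replicate 2 and -2.27 without restimulated replicate 3 (adjusted p = 0.175). Differences between genotypes in this comparison ranged from -0.98 (Cxcr2) to 0.67 (Cxcl2) on the log2 scale, with adjusted p from 0.796 to 1.

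**Figure D3:**
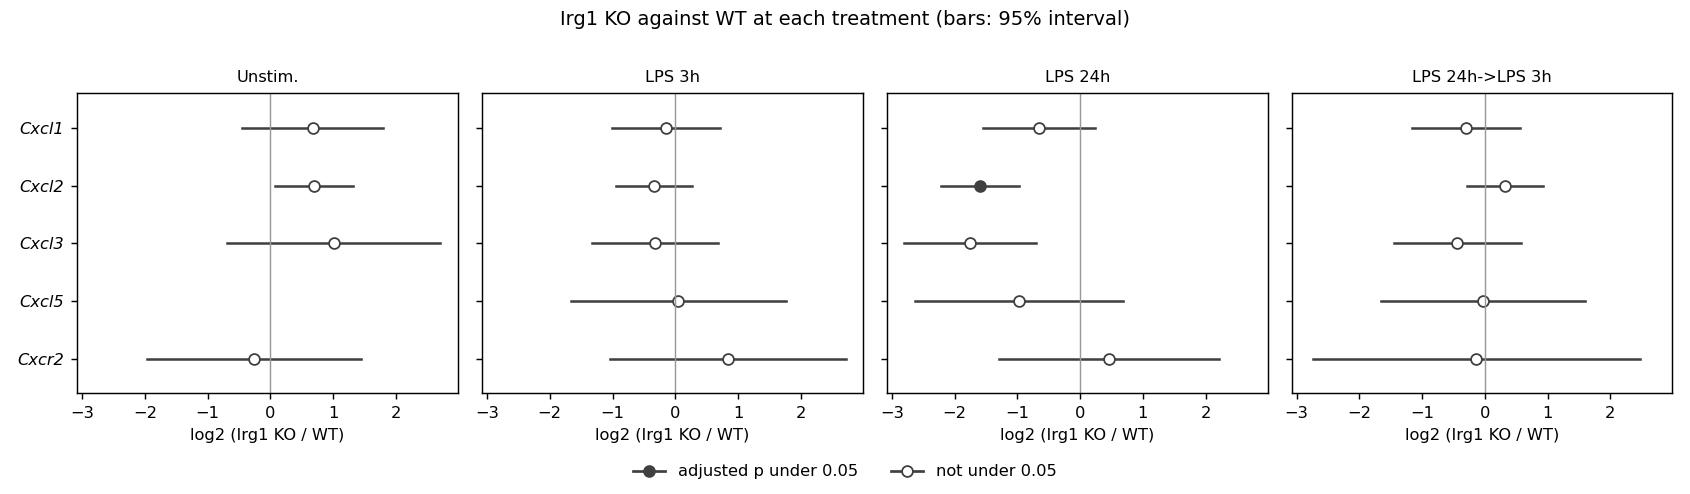
Log2 ratio of Irg1 KO to WT (horizontal axis) for each gene at each treatment, with 95% intervals. The filled point has an adjusted p under 0.05. Cxcl5 in unstimulated cells is left out because it was at or near 0 counts in both genotypes. Cxcl2 at LPS 24h is the one difference that passed.

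Between genotypes, Cxcl2 at LPS 24h was the one difference among the 5 genes that passed the test in any treatment. Over all genes 0.0421% passed in unstimulated cells, 0.00842% at LPS 3h, 0.598% at LPS 24h and 0.118% after restimulation. WT libraries held 613.3, 613.5 and 823 normalized CPM and Irg1 KO libraries 277, 217 and 184, with no overlap. The Irg1 KO level was 33.1% of that of WT (95% interval 21.5% to 50.9%), a log2 fold change of -1.60 (SE 0.304, adjusted p = 0.0107). Calls in this direction made up 0.497% of all genes. All 3 Irg1 KO libraries were in pool 1, and against the 1 WT library of that pool the log2 difference was -1.46. With pool as a term it was -1.82 (adjusted p = 0.00498).

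That call depended on the model. When only the 2 compared groups were fitted the log2 fold change was -1.56 and the adjusted p 0.224, and the call was also lost without Irg1 KO LPS 24h replicate 2 (0.0994) or 3 (0.124) and without WT LPS 24h replicate 3 (0.0829). This WT library held the highest Cxcl2 of its group. It also held the lowest macrophage marker sum of all libraries, 3319 normalized CPM, with 5568 the next lowest. The part of this in the call was not tested. Over all alternatives and single libraries left out the log2 fold change stayed between -1.82 and -1.41.

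Cxcl3 at LPS 24h showed a difference of the same size, at 29.6% of the WT level (14.3% to 61.3%) and without overlap, but did not pass (log2 fold change -1.76, SE 0.515, adjusted p = 0.135). It passed with no filter on low counts (adjusted p = 0.000147). Groups that did not overlap in this direction were found for 8.99% of all genes. Cxcl3 was also among the lower values of its group in pool 1: the WT libraries of pool 1 held 164, 31 and 76.4 normalized CPM at LPS 3h, LPS 24h and restimulation, below both other WT cultures each time. The 2 restimulated Irg1 KO libraries of pool 1 held 54.9 and 46.7, against 199.6 in pool 2. Within pool 1 the LPS 24h difference between genotypes was -1.35, and with pool as a term it was -1.05. The part of the pool in the difference was not tested further.

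**Figure D4:**
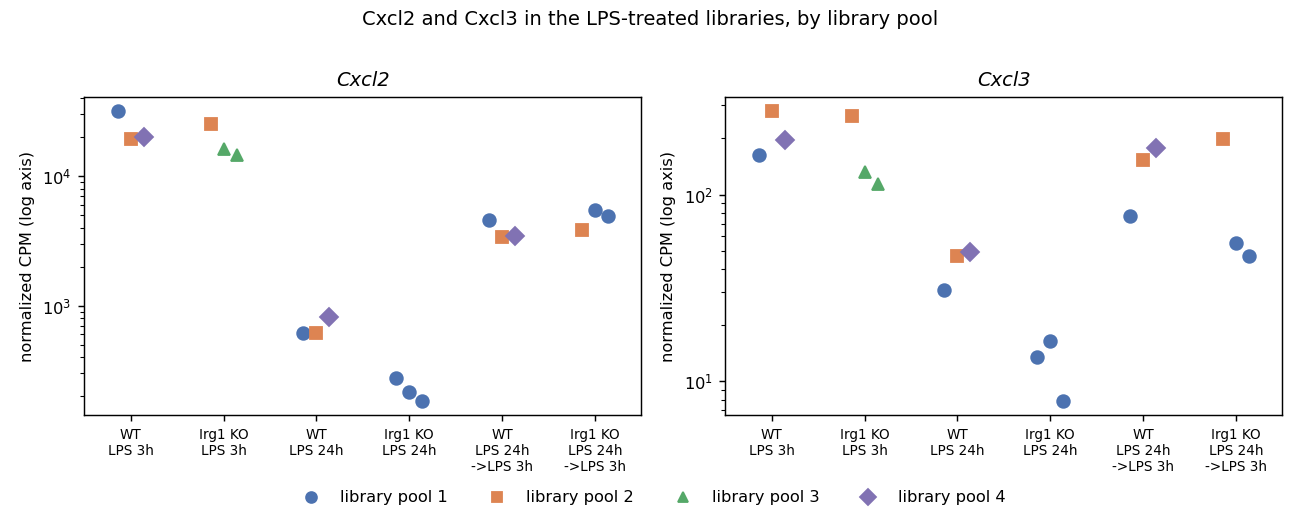
Normalized CPM (log axis) of Cxcl2 and Cxcl3 in the 18 LPS-treated libraries, with library pools 1 to 4 shown by colour and shape. Cxcl2 at LPS 24h lies lower in the 3 Irg1 KO libraries, all of pool 1, than in each WT library. For Cxcl3 the pool 1 libraries lie lowest in every group that holds more than 1 pool including pool 1.

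At LPS 24h Cxcl1 in Irg1 KO was at 63.4% of the WT level (34.2% to 118%, adjusted p = 0.689), Cxcl5 at 50.9% (16.2% to 160%, adjusted p = 0.782) and Cxcr2 at 138% (40.9% to 465%, adjusted p = 0.935). The log2 difference of Cxcr2, 0.46, was 1.95 with pool as a term (adjusted p = 0.634), 2.35 within pool 1 and 1.20 without WT LPS 24h replicate 3. That of Cxcl5, -0.97, was -1.93 without Irg1 KO LPS 24h replicate 2 and -0.38 without replicate 3, and -1.76 within pool 1. In unstimulated cells Cxcl2 was higher in all 3 Irg1 KO libraries (35.2, 34.9 and 54.9 normalized CPM) than in the WT libraries (19.9, 33.5 and 24.1), a log2 fold change of 0.70 (SE 0.303) that did not pass (adjusted p = 0.856); 4.34% of all genes lay higher without overlap there. At LPS 3h and after restimulation none of the 5 genes passed between genotypes, with log2 fold changes from -0.34 to 0.84 and from -0.44 to 0.32 and adjusted p of at least 0.993 and 0.897.

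Ordered by mean level, Cxcl1 ran in pairs of genotypes: LPS 3h, then restimulated, then LPS 24h, then Unstim., with WT and Irg1 KO overlapping within each pair and no overlap from one pair to the next. Cxcl2 followed the same order, and its genotypes overlapped at LPS 3h and after restimulation but not at LPS 24h or in unstimulated cells. For Cxcl3 neighbours overlapped from LPS 3h down to WT LPS 24h. For Cxcl5 neighbouring groups overlapped throughout, and Irg1 KO Unstim. was the lowest. Cxcr2 was highest in the 2 unstimulated groups and lowest in the 2 restimulated groups, with the other 4 groups overlapping their neighbours in between.

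Neutrophil markers were set beside Cxcr2, which passed as lower than Unstim. only at LPS 3h in WT. At LPS 24h it did not pass in WT (adjusted p = 0.171) or Irg1 KO (adjusted p = 0.47). The 12 markers, among them the granule genes Ltf, Camp and Ngp, summed to 693 to 884 normalized CPM in unstimulated WT libraries, 683 to 822 at LPS 3h, 261 to 336 at LPS 24h and 180 to 231 after restimulation. In Irg1 KO the ranges were 585 to 846, 563 to 773, 320 to 387 and 249 to 292. Most of each sum came from S100a8, S100a9, Csf3r and Mmp8, which macrophages can also express, and Ly6g, the defining surface marker, reached at most 1.66. At LPS 3h these sums overlapped those of unstimulated cells in both genotypes. The WT call of Cxcr2 at that time was lost in 5 of 6 fits that left out 1 library and with pool as a term. Of the 11 markers tested, 1 passed there as lower in each genotype, beside 16.3% of all genes in WT and 18.9% in Irg1 KO. It was Retnlg, the gene of a resistin-like protein of neutrophils. Retnlg fell by 2.02 on the log2 scale in WT (adjusted p = 0.0135) and by 2.85 in Irg1 KO (adjusted p = 0.000931). The granule genes Ltf, Camp and Ngp had log2 fold changes of -0.77, 0.67 and 0.03 in WT at that time and did not pass. At LPS 24h Ltf fell by 5.19 and Retnlg by 4.98 on the log2 scale in WT (adjusted p = 1.24e-07 and 9.13e-06). Camp, Ngp and S100a9 also passed as lower there, while S100a8, Mpo, Elane, Csf3r, Mmp8 and Cebpe did not pass. In Irg1 KO the same genes passed as lower, and Csf3r passed as higher (0.94, adjusted p = 0.0243). After restimulation Ly6g and Mpo had 0 counts in both genotypes and Retnlg in WT. In such bulk libraries fewer cells of a type and less RNA per cell cannot be told apart, and the part of neutrophil-lineage cells in the level of Cxcr2 was not tested.

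**Figure D5:**
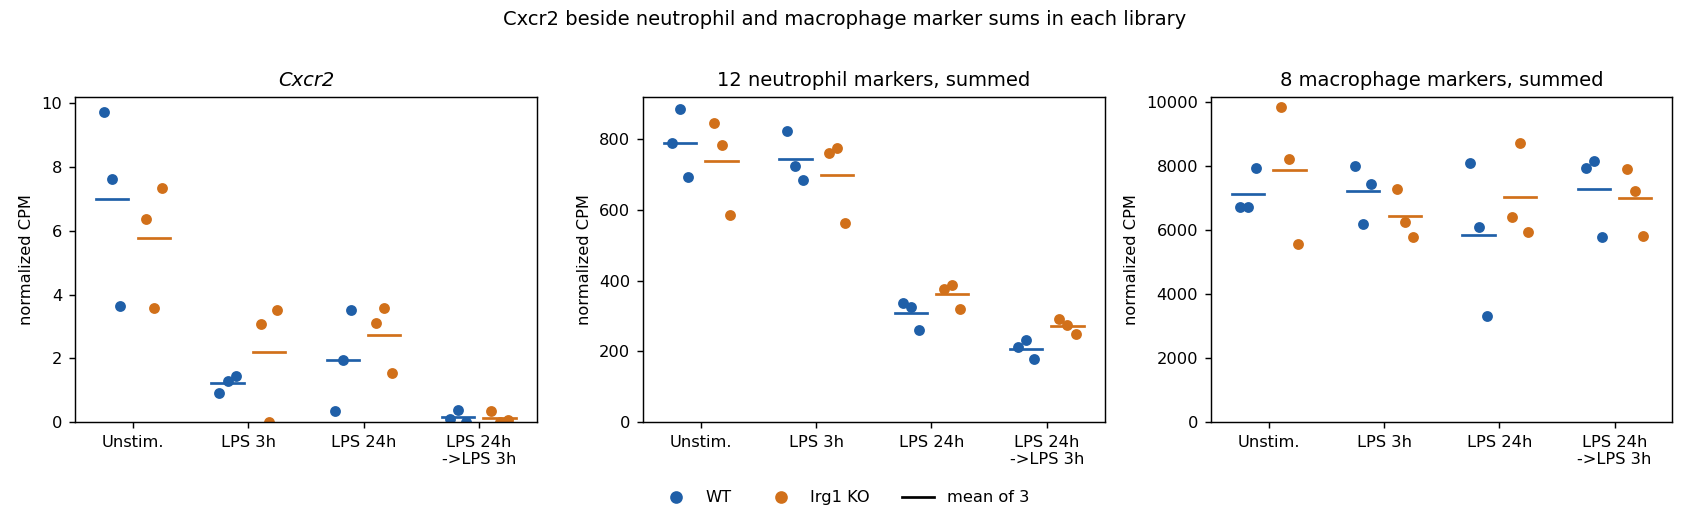
Normalized CPM of Cxcr2 (left), of 12 neutrophil markers summed (middle) and of 8 macrophage markers summed (right) in each library, by treatment and genotype, with means of 3 as lines. At LPS 3h Cxcr2 is down in WT, a call lost in 5 of 6 fits that left out 1 library. The neutrophil sum, carried mostly by genes that macrophages can also express, is not down there, although Retnlg among its markers fell. After restimulation Cxcr2 and the neutrophil sum are both at their lowest. The macrophage sum shows no such step.

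Of 11 other genes, for CXC chemokine receptors, atypical chemokine receptors and the G-CSF receptor, 5 had enough counts to be tested (Cxcr3, Cxcr4, Cxcr6, Ccrl2 and Csf3r). Cxcr1, the other neutrophil receptor of this kind, had counts in WT Unstim. cells at a mean of 0.159 normalized CPM and 0 counts in the other groups. Ackr1, a scavenger of CXC and CC chemokines, had 0 counts in every group. Cxcr4, the receptor of CXCL12, fell by 6.07 on the log2 scale at LPS 3h in WT (SE 0.639, adjusted p = 4.33e-09) and by 9.13 in Irg1 KO (SE 0.818, adjusted p = 1.5e-10), and it stood at 48.5 normalized CPM in unstimulated and 0.729 in LPS 3h WT cells. Ccrl2, a non-signalling receptor that presents chemerin, rose by 5.90 in WT (SE 0.339, adjusted p = 6.75e-15) and 5.20 in Irg1 KO (SE 0.329, adjusted p = 7.33e-14). These were the 1 gene called lower and the 1 called higher of the 5 in each genotype. Over all genes 16.3% passed as lower and 15.8% as higher in WT, and 18.9% and 17% in Irg1 KO.

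Of 25 genes that act in CXCR2 signalling and desensitization, all were tested. At LPS 3h 10 passed as higher and 6 as lower in WT, and 6 and 5 in Irg1 KO. Over all genes 15.8% passed as higher and 16.3% as lower in WT, and 17% and 18.9% in Irg1 KO. The list medians were 0.24 and 0.25, against -0.18 and -0.20 over all genes. Among those with the largest changes in WT, Arrb1, which encodes the arrestin that uncouples such receptors, fell by 2.87 on the log2 scale (adjusted p = 5.39e-06) and Rgs2, a brake on G protein signalling, fell by 2.53 (adjusted p = 5.69e-08). On restimulation against LPS 24h, 474 of all 11878 genes passed in WT and 611 in Irg1 KO. Of the 25, too few passed to set the list apart from all genes. These were 0 in WT and, in Irg1 KO, Vasp upward (1.09, adjusted p = 0.0211) and Rgs2 downward (-1.47, adjusted p = 0.00135). In WT the values of Vasp and Rgs2 were 0.97 (adjusted p = 0.0553) and -0.42 (adjusted p = 0.509), and neither difference between genotypes passed (adjusted p = 0.991 and 0.422). None of the 25 passed between genotypes at any treatment.

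The 11 other CXC chemokine ligands, of which 8 were tested, shared part of the pattern. At LPS 3h 6 rose in WT and 4 in Irg1 KO, beside 15.8% and 17% of all genes. They were led by the interferon-driven Cxcl9, Cxcl10 and Cxcl11 with log2 fold changes of 12.61, 10.92 and 11.87 in WT. Of the ligand genes that lie between Cxcl5 and Cxcl3, Pf4 rose in WT (1.27, adjusted p = 0.00671) but not in Irg1 KO (0.0028). Ppbp passed in neither genotype (-0.67 in WT, adjusted p = 0.596, and -1.03 in Irg1 KO, adjusted p = 0.365). Against LPS 3h, 4 of the 8 were lower after restimulation in each genotype, beside 13.1% of all genes in WT and 14.1% in Irg1 KO. Between genotypes Cxcl10 and Cxcl11 were lower in Irg1 KO at LPS 24h (-2.54, adjusted p = 0.000255, and -1.89, adjusted p = 0.0389), as Cxcl2 was, and after restimulation they still were (-1.80, adjusted p = 0.0295, and -2.38, adjusted p = 0.0126), where 0.0926% of all genes passed as lower. At that time the log2 difference of Cxcl2 was 0.32 (95% interval -0.28 to 0.93).

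A list of 18 other genes held neutrophil attractants and growth factors together with receptors for attractants and enzymes of leukotriene synthesis, and 16 were tested. At LPS 3h 8 rose and 1 fell in WT, and 9 rose and 2 fell in Irg1 KO. Over all genes 15.8% rose and 16.3% fell in WT, and 17% and 18.9% in Irg1 KO. Of the 8 that rose in WT, 3 were receptors (C5ar1, Fpr1 and Fpr2), and the 1 that fell was the receptor gene C5ar2 (-1.36, adjusted p = 0.00141). Il1a, which encodes interleukin-1 alpha, rose by 9.98 in WT (adjusted p = 1.76e-15), Ccl4 by 8.24 (adjusted p = 8.76e-16) and Ccl3 by 7.42 (adjusted p = 3.28e-15). Saa3, which encodes an acute-phase protein, behaved unlike Cxcl1 and Cxcl2, with restimulated levels above LPS 3h by 4.16 in WT (adjusted p = 1.45e-08) and 4.84 in Irg1 KO (adjusted p = 1.48e-09). Csf3, which encodes the neutrophil growth factor G-CSF, passed as higher after restimulation than at LPS 24h in Irg1 KO (5.26, SE 1.35, adjusted p = 0.017). In WT its log2 fold change was 4.76 (SE 1.42, adjusted p = 0.0555), and the difference between genotypes was 0.50 (adjusted p = 0.998). At LPS 24h 2 of the 16 were lower in Irg1 KO than in WT, Ccl4 (-1.66, adjusted p = 0.0108) and Il1a (-1.53, adjusted p = 0.0459), beside 0.497% of all genes.

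The genes whose log2 CPM followed each member most closely over the 24 libraries (Pearson's r, a description over libraries that share treatments) were Marcksl1 (0.986), Tnf (0.986) and Il1a (0.98) for Cxcl1, and Il1a (0.994), Tnf (0.986) and Ccrl2 (0.985) for Cxcl2. For Cxcl3 they were Zc3h12a (0.977), AA467197 (0.967) and Cpd (0.965), and for Cxcl5 Tnfrsf1b (0.926), Acsl1 (0.912) and C3 (0.905). For Cxcr2 they were Tmem245 (0.86), Ovgp1 (0.856) and Nqo2 (0.842). Among the members, r was 0.98 between Cxcl1 and Cxcl2, 0.933 between Cxcl2 and Cxcl3 and 0.733 between Cxcl1 and Cxcl5, and Cxcr2 had an r of -0.656 to -0.623 with the 4 chemokines.

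The counting could split reads between similar genes, so the transcripts of the 4 chemokines were compared. The coding sequences of Cxcl2 and Cxcl3 were 89.7% identical, and their transcripts shared 61 windows of 50 bases, of 1060 in Cxcl2 and 967 in Cxcl3. Cxcl1 and Cxcl2 were 76% identical and shared no window of 25 or 50 bases, nor did any pair with Cxcl5. Reads from shared Cxcl2 and Cxcl3 windows cannot be assigned to one gene, and Cxcl3 values are uncertain to that extent. With the reads of Cxcl1, Cxcl2 and Cxcl3 summed, the LPS 24h difference between genotypes was -1.57 (adjusted p = 0.0103). Cxcl2 made up 89.7% to 93.7% of these reads in WT and 85.6% to 93.4% in Irg1 KO at LPS 24h. The sum therefore mostly repeats the Cxcl2 value and does not address that of Cxcl3.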

How the data were processed

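Gene counts of 24 mouse BMDM libraries were analysed, 3 per genotype and treatment, grouped by the sample labels. For these, the authors reverse-transcribed mRNA with barcoded oligo-dT primers, pooled the cDNA and amplified it by PCR without molecular identifiers. Reads were mapped to mm10 using STAR, and the deposited values are whole-number read counts per gene. The counting program, annotation and strand setting are not given in the sources used here, so overlapping genes cannot be told apart, and floors cover counting error only. The 5 summary lines of the table, 40.6% to 52% of each column, were left out of library sizes. Of 22165 genes, 21822 were matched to a name in GENCODE M21.

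Counts were normalized with TMM, filtered with filterByExpr and tested with edgeR's quasi-likelihood test (version 4.0.16, R 4.3.3) in a model of the 8 groups over all libraries. Benjamini-Hochberg adjustment ran over all 11878 genes in the test, with 0.05 as the threshold, and an adjusted p with no tool beside it comes from edgeR. Log2 CPM used a prior count of 2. Alternatives were DESeq2 (1.42.0) size factors and Wald test, TMM without the 20 genes with the most counts, no filter, a mean count of at least 10, only the compared groups, replicate number as a block (crossed with genotype or nested), pool as a term, the 3 similar chemokines summed, and each library left out. The procedure was tested on simulated data. An exact permutation test of 3 against 3 cannot give a p under 0.1 and was not used.

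Named were all 5 members, Acod1, up to 3 genes with the largest change per list and comparison, and the 3 genes most like each member. Other genes were chosen after their values were seen. Not every gene meeting these criteria is reported here. The members and lists were chosen with earlier results of these data known. Promoters are from RefSeq (GRCm38.p6), and transcripts are from GENCODE M21, 1 per gene with the longest coding sequence.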

Additional observations from a re-analysis of the deposited data

How the results depend on the processing

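Of 687 values recomputed under other settings, 664 kept direction and side of the threshold. Counts of members called that moved by more than 1.5 times were these. With no filter, 1 member passed as lower on restimulation against LPS 24h in WT, 2 between genotypes at LPS 24h, and 1 as higher in the genotype difference of the restimulation response. DESeq2's Wald test gave 1, 1 and 1 in these. Pool as a term gave 0 lower for WT LPS 3h and 1 for the difference of the restimulation response, and fitting only the compared groups gave 0 between genotypes at LPS 24h. With 1 library left out, these counts ran from 0 to 1. Smaller moves were Cxcl3 called higher on restimulation in WT with no filter (adjusted p = 8.15e-05) or pool (adjusted p = 0.0244), and Cxcr2 against LPS 3h, gained in WT with no filter (adjusted p = 0.0243) or DESeq2's Wald test (adjusted p = 0.022) and lost in Irg1 KO with pool (adjusted p = 0.0943). The causes were not tested.

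Pool as a term reversed Irg1 KO Cxcr2 at LPS 24h against Unstim. (0.58), Cxcl2 (0.31) and Cxcl5 (-0.63) between genotypes at LPS 3h, Cxcl5 (0.033) and Cxcr2 (0.23) between genotypes after restimulation, and the genotype differences in restimulation against LPS 3h of Cxcl2 (-0.073) and Cxcl5 (0.66). None of these 7 had passed.

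Leaving out 1 library turned the sign of 16 values, none of which had passed. They ran, for Cxcl5 on restimulation in WT, from -0.26 to 0.41. Between genotypes they ran from -0.60 to 1.63 for Cxcl3 and -0.58 to 0.037 for Cxcr2 in Unstim., from -0.27 to 0.023 for Cxcl1 and -0.30 to 0.35 for Cxcl5 at LPS 3h, from -0.044 to 1.20 for Cxcr2 at LPS 24h, and from -0.46 to 0.081 for Cxcl1, -0.24 to 0.24 for Cxcl5 and -1.83 to 1.41 for Cxcr2 after restimulation. For genotype differences in responses they ran from -1.94 to 0.29 for Cxcl3 in LPS 3h against Unstim., from -0.024 to 0.87 for Cxcl1 and -2.26 to 0.97 for Cxcr2 in restimulation against LPS 24h, and from -0.31 to 0.22 for Cxcl1, -1.09 to 0.37 for Cxcl3, -0.36 to 0.30 for Cxcl5 and -2.68 to 0.56 for Cxcr2 in restimulation against LPS 3h.

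Most pairs of samples with the same replicate number did not deviate together. An r over 0.1 was found in 3 of 12 pairs between genotypes, 4 of 18 within Irg1 KO and 1 of 18 within WT. Replicate 3 did so in part: between LPS 24h and restimulated cells its r was 0.337 in Irg1 KO and 0.264 in WT. At LPS 24h its r between genotypes was 0.287. The numbers were not treated as pairs in edgeR's model of the 8 groups. With the replicate block, Cxcl3 passed on restimulation in WT (1.71, adjusted p = 0.0494), and nested in genotype also Cxcl3 in Irg1 KO against LPS 3h (-0.97, adjusted p = 0.0478). Under the replicate block the log2 fold change of Cxcl2 between genotypes at LPS 24h was -1.61 (adjusted p = 0.0069).

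Counts over all genes moved more: restimulation in WT gave 474 calls (109 from only the compared groups, 766 from DESeq2) and in Irg1 KO 611 (1080 from only the compared groups), LPS 3h in Irg1 KO 4260 (2361 with pool), restimulation against LPS 3h in Irg1 KO 3233 (1407 with pool), and LPS 24h between genotypes 71 (3 from only the compared groups, 246 with no filter). Pool as a term moved the share of higher calls from 47.4% to 59.1% for LPS 3h and from 48.1% to 33.5% for restimulation against LPS 3h in Irg1 KO, and DESeq2 size factors moved the median of all genes in the latter from 0.122 to 0.0105. Depth limits Cxcl5 and Cxcr2, with 0 to 151 counts per library.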

Other observations

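Chemokine mRNAs of this family are short-lived, and proteins that bind AU-rich or stem-loop elements in their 3′ untranslated regions control their decay. In GENCODE M21 transcripts the pentamer ATTTA occurred 7 times in the 592 bases of the Cxcl1 3′ untranslated region, 11 times in the 734 bases of Cxcl2, 5 times in the 645 bases of Cxcl3, 5 times in the 1111 bases of Cxcl5 and 2 times in the 1818 bases of Cxcr2. Among genes with a region of 80% to 125% of the same length, as many or more were found in 0.459% for Cxcl1, 0.0389% for Cxcl2, 3.26% for Cxcl3, 13.5% for Cxcl5 and 73.1% for Cxcr2. These counts describe the sequence, and mRNA decay was not measured.

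Of 14 genes for such proteins, 13 were tested. At LPS 3h 6 rose and 3 fell in WT and 8 rose and 3 fell in Irg1 KO. Over all genes 15.8% rose and 16.3% fell in WT, and 17% and 18.9% in Irg1 KO. The list medians were 0.74 and 0.85, against -0.18 and -0.20 over all genes. Zc3h12c, an endonuclease of the Regnase family, rose by 3.95 in WT on the log2 scale (adjusted p = 1.58e-08), Zc3h12a, which encodes Regnase-1, by 3.60 (adjusted p = 2.17e-10) and Zfp36, which encodes tristetraprolin, by 3.57 (adjusted p = 5.04e-10). After restimulation Zfp36l1 was lower than at LPS 24h in both genotypes, by -2.68 in WT (adjusted p = 6.46e-06) and -2.08 in Irg1 KO (adjusted p = 8.39e-05), and in Irg1 KO Zc3h12c was higher by 2.78 (adjusted p = 3.4e-05). None of the 13 passed between genotypes at any treatment.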
